A study of Mus musculus with 14 samples.

Results

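The cytosolic ribosomal protein genes encode the proteins that, with the ribosomal RNAs, build the large and the small subunit of the ribosome. They were taken from the count table by symbol, as Rpl or Rps followed by a number with any paralogue suffix, plus Rpsa, Rplp0, Rplp1 and Rplp2. Rows named as pseudogenes with a -ps suffix, the Rps6k kinases and Rps19bp1 were left out. The rule gave 90 of 53465 genes, 54 of the large and 36 of the small subunit, and no symbol was repeated. GENCODE M21 calls 84 of them protein-coding, and the other 6 (Rpl32l, Rpl6l, Rps12l1, Rps3a2, Rps3a3 and Rps4l) carry a pseudogene biotype. No library held a count of Rps12l1.

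RNA was sequenced after polyA selection from wild-type C57BL/6 mouse embryos without treatment. Dorsal skin has 1 library of each age, embryonic day (E) 9.5, E10.5, E12.5 and then E14.5, in each of 2 sequencing projects, called first-project and second-project skin here. The aorta-gonad-mesonephros region (AGM), in which blood stem cells first arise, has libraries of E9.5, E10.5 and also E11.5 in 2 sequencing rounds, and the E9.5 label names the caudal part, para-aortic splanchnopleura included. Tissue was frozen on dry ice before extraction. Nothing in the labels tells whether libraries of one age stem from separate embryos, and p-values measure only the spread between libraries, which may be technical.

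A ribosome holds 1 copy of nearly every ribosomal protein, and the stalk proteins Rplp1 and Rplp2 are the textbook exception. The genes are therefore known for even expression, and most of their mRNAs begin with a run of C and U letters, the 5′ terminal oligopyrimidine or TOP motif, through which mTOR and Larp1 set their translation. The family is also known for its many retrocopies, intronless copies of an mRNA inserted elsewhere in the genome, most of which are pseudogenes.

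Letters around annotated start sites were searched for such runs. Windows of 30 bases, from 10 before to 20 after a RefSeq start (GRCm38.p6, on the gene's strand), were read for an unbroken run of at least 8 letters that were each C or T. Of the 65 members that matched the RefSeq promoter table by symbol, 25 held such a run at a start (38.5%), against 13% of 27025 genes. The median longest run was 7 letters in the members and 5 in all genes of the table. A run is a description of letters and not evidence of a start or of its use. The windows of the longest run (Rpl27a, chr7:109519185-109519214, + strand), of the large-subunit gene Rpl15 (chr14:18270967-18270996, - strand), of the axial mutant gene Rpl38 (chr11:114668570-114668599, + strand), of the mTOR pathway's phosphorylation target Rps6 (chr4:86857348-86857377, - strand), of Rps27 (chr3:90213629-90213658, - strand) and of its paralogue Rps27l (chr9:66946076-66946105, + strand) are printed with the longest run of C or T in capitals, and that of Rps27l was 7 letters.
Rpl27a: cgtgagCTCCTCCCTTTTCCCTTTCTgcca
Rpl15: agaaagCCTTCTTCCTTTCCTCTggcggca
Rpl38: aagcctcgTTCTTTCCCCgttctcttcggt
Rps6: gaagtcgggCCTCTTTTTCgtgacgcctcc
Rps27: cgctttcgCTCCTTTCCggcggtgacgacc
Rps27l: CCTCCCCgccgcctctatcccggaagttgc

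The second feature, sequence copies, is shown by Rps27, whose counts differed more between the libraries than those of any other member tested between the skin projects. Rps27 (ENSMUSG00000090733, chr3:90212522-90213651, - strand, GRCm38) has a retrocopy, Rps27rt (chr9:114982366-114982739, - strand), and a paralogue, Rps27l (chr9:66946086-66949516, + strand). Each has a coding sequence of 255 bases in its main GENCODE transcript. Over these bases Rps27rt had 0 and Rps27l had 61 differences from Rps27. Coding bases 61 to 120 are printed, with capitals for bases that differ from Rps27, of which Rps27l has 10 in these 60.
Rps27: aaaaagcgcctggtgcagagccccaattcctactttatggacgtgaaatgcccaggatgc
Rps27rt: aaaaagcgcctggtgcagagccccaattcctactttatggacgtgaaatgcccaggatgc
Rps27l: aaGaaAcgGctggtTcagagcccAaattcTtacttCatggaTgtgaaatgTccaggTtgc

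Libraries held 6770338 to 29534551 counts, and 3 counts correspond to 0.102 to 0.443 CPM, the count scaled to the library total. Second-project skin stood apart from the other libraries: the 10 erythroid marker genes summed to 0.148 to 0.454 CPM there, against 2419 to 8737 CPM in first-project skin, the 7 dividing-cell markers to 215 to 292 against 1812 to 3323 CPM, and the 8 macrophage markers to 578 to 1498 against 6.57 to 247 CPM. The defining basal keratinocyte gene Krt14 was at 0 to 0.142 CPM in second-project skin, and in first-project skin at 0.652, 0.484, 34.3 and 459 CPM from E9.5 to E14.5. The endothelial gene Cdh5 was at 80.6 to 113 CPM in the AGM libraries, 86.7 to 200 CPM in first-project skin and 2.49 to 8.42 CPM in second-project skin. It therefore does not set the AGM apart from first-project skin. The AGM ages went against genes known for developmental timing, which were chosen after their values were seen: Lin28a, which fell from 366 to 0.94 CPM between E9.5 and E14.5 in first-project skin, was at 23, 121 and 571 CPM over the 3 rising AGM labels of the first round and at 40.8, 129 and 496 CPM over those of the second. The presomitic mesoderm gene Hes7 was at 9.02 and 4.92 CPM in the libraries labelled E11.5 and at 0.203 to 0.571 CPM in the other AGM libraries. AGM ages are therefore given as labelled throughout, and second-round AGM columns carry sample numbers that were matched to the ages of the first round. Fewer cells of a type and less RNA per cell cannot be told apart in such bulk samples.

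The members took 1.34%, 1.16%, 0.925% and 1.43% of all counts in first-project skin, in order of age. In second-project skin the shares were 2.53%, 2.46%, 2.43% and 2.07% in the same order. The AGM libraries held 3.02%, 3.40% and 3.84%, in order of label, in the first round and 3.30%, 3.60% and 4.27% in the second. Thus each second-project skin library lay above each first-project library, each AGM library lay above each skin library, and the share was higher with each labelled AGM age in both rounds. The 95% Wilson intervals ran from 3.01% to 3.02% at the lowest and from 4.26% to 4.28% at the highest AGM share, and cover counting error only. Counts on the large subunit exceeded those on the small by 1.33 to 1.42 times in first-project skin, 1.10 to 1.25 times in second-project skin and 1.25 to 1.31 times in the AGM, so this ratio was highest in first-project skin.

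**Figure D1:**
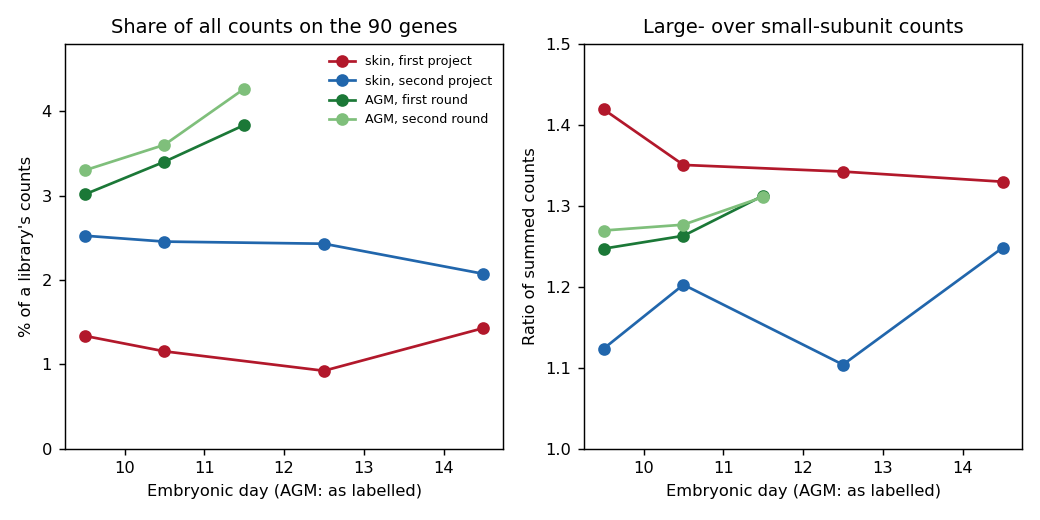
Left, the share of each library's counts on the 90 genes (%) against embryonic day; right, the ratio of large- to small-subunit counts. Each point is 1 library and lines join a skin project or an AGM round; the AGM points rise from 3.02% and 3.30% to 3.84% and 4.27%, and first-project skin lies lowest, at 0.925% to 1.43%.

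Levels of different genes were compared as CPM per kilobase of the main transcript. Over the 84 protein-coding members, the upper quartile of these levels was 2.71 to 2.99 times the lower quartile in the AGM libraries and 2.62 to 2.76 times in second-project skin. In first-project skin that ratio was 8.30 at E9.5, 15.8 by E12.5 and 17.5 by E14.5. The genes were thus near one another in level in the AGM and in second-project skin and widely scattered in first-project skin. The median level was 370 to 498 CPM per kilobase in the AGM, 230 to 281 in second-project skin and 42 to 67.7 in first-project skin.

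**Figure D2:**
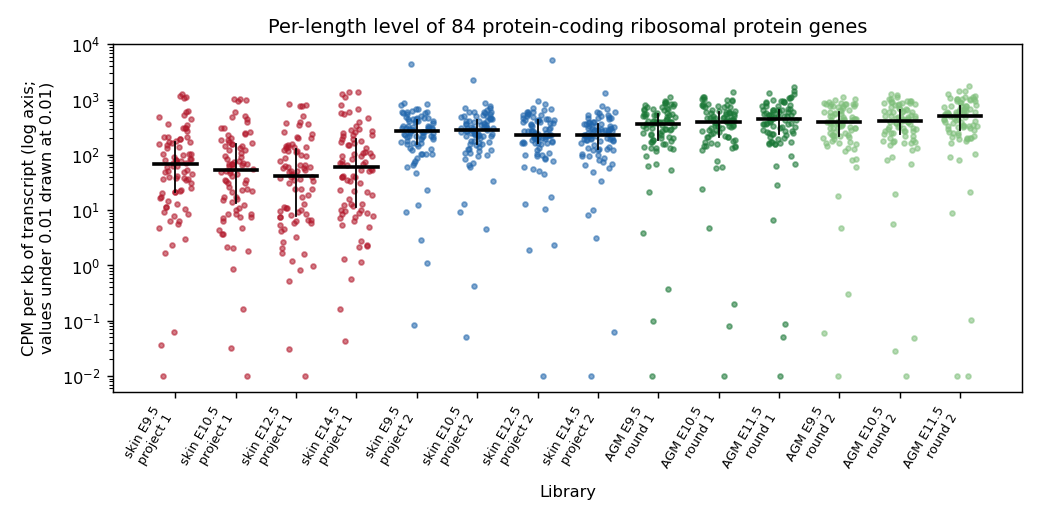
Each point is the level of 1 of the 84 protein-coding genes in 1 library, as CPM per kilobase of transcript on a log axis; thick lines are medians and thin lines the span from lower to upper quartile. The points of the 4 first-project skin libraries scatter downward, with quartile ratios of 8.30 to 17.5, while the other 10 libraries have ratios of 2.62 to 2.99.

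The highest per-length level in the AGM was that of Rplp1, a protein of the stalk that recruits elongation factors, at 1119 to 1792 CPM per kilobase. Rpl4, a large-subunit protein that lines the exit tunnel, was at 914 to 1456, and Rps2, a small-subunit protein at the mRNA entry, at 791 to 1437. The ranges of these 3 genes overlapped. In first-project skin Rplp1 was at 768 to 1362 and Rpl4 at 800 to 1243 CPM per kilobase, near the AGM range. Rps2 was lower there, at 119 to 302, and in second-project skin it was at 206 to 306.

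Levels in first-project skin were ordered by how much of a transcript other genes share. For each gene, the share of 50-base windows of its main transcript that also occur in a transcript of another GENCODE M21 gene, on either strand, was computed from the annotation alone. The median share was 49.3% over the 84 protein-coding members and 0.137% over 21860 other protein-coding genes. Shares of 60% or more were held by 33 of these members (39.3%) and by 8.28% of the other genes. The highest share was that of Rps27, at 98.6%, with 9 other genes, and the lowest was 0%, the share of Rpl3l and Rpl39l among others.

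At E9.5 and E10.5, 81 protein-coding members had at least 1 CPM in the AGM. This filter, also used for the other genes below, took the AGM level alone, the lower term of the skin ratios. Members low in the AGM, such as Rpl39l, were left out whatever their level in skin. Across the 81 genes the window share and the log2 ratio of first-project skin to AGM correlated at a Spearman rho of -0.65 (Pearson r = -0.61). With windows of 100 bases rho was -0.71. For second-project skin against AGM the same genes gave rho = 0.12, and for the second AGM round against the first rho = -0.06. The ratios within each correlation share the AGM libraries, and genes are not independent replicates. Over 13317 other protein-coding genes rho was -0.12 for first-project skin and 0.02 for second-project skin.

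In bands of the share, the median log2 ratio of first-project skin to AGM was 0.04 for the 7 members under 10%, -0.86 for the 11 from 10% to 30%, -1.91 for the 30 from 30% to 60% and -3.31 for the 33 above. Second-project skin had -0.37, -0.34, -0.59 and -0.32 in the same bands, with no such order. The other protein-coding genes gave 0.03, -0.11, -0.35 and -0.85 for first-project skin, an order of the same direction and smaller size. How reads that match several genes were counted is not stated in the labels or processing notes, and its part in these values was not tested.

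**Figure D3:**
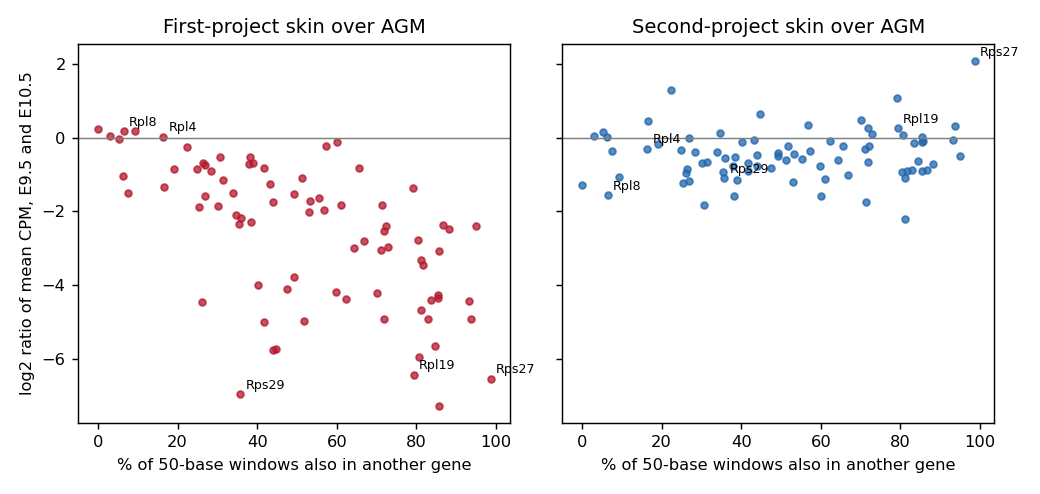
Each point is 1 of 81 protein-coding genes; the horizontal axis is the % of 50-base windows of its transcript found in another gene and the vertical axis the log2 ratio of mean CPM in skin to that in AGM at E9.5 and E10.5. Points fall with the window share for first-project skin (rho = -0.65) and not for second-project skin (rho = 0.12).

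Rps27 was at 3.16, 2.51, 2.04 and 2.73 CPM in first-project skin from E9.5 to E14.5. It was at 1509, 772, 1811 and 459 CPM in second-project skin, and at 252, 256 and 264 CPM and 288, 291 and 324 CPM in the 2 AGM rounds. First-project skin was thus far below all others, and the second-project libraries spread over a range of their own. Their values ran in the order of the share of -ps rows, which amounted to 7.36%, 4.68%, 9.66% and 3.30% of member counts there, 0.771% to 0.847% in first-project skin and 0.382% to 0.504% in the AGM. The part of these rows in the levels was not tested. Rps27l, whose coding sequence differs, was at 51.4, 47.5, 29.3 and 41.6 CPM in first-project skin, so the paralogue exceeded Rps27 in those libraries and stood below it elsewhere.

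Rpl19, of the large subunit, shared 79.3% of its windows and was at 4.87, 2.77, 1.21 and 1.70 CPM in first-project skin against 279 to 505 CPM in second-project skin and 301 to 442 CPM in the AGM. Rpl23a, which sits at the exit of the tunnel, shared 85.7% and was at 1.30, 0.484, 0.292 and 0.313 CPM against 104 to 209 and 134 to 183 CPM. Rps29 shared 35.8% and was at 2.21, 0.836, 0.667 and 0.448 CPM against 63.4 to 110 and 188 to 231 CPM. Its log2 ratio to the AGM was -6.95 at E9.5 and E10.5, where the median of its band of shares was -1.91, so the share did not order every gene.

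Rpl8, at the peptidyl transferase centre, shared 6.49% and was at 1097, 955, 773 and 1116 CPM in first-project skin, 255 to 356 CPM in second-project skin and 835 to 1126 CPM in the AGM. Rps3, a small-subunit protein at the mRNA entry, shared 2.96% and was at 923, 857, 652 and 1078 CPM, against 680 to 916 CPM and 794 to 1051 CPM. Both first-project ranges overlapped those of the AGM. Not every member with few shared windows did so: Rps20 (7.57%) was at 132 to 196 CPM in first-project skin and 487 to 653 CPM in the AGM, and Rps15a (6.37%) at 159 to 218 and 304 to 468 CPM. Fau and Rack1 stand outside the naming rule. Fau, which encodes a small-subunit protein fused to a ubiquitin-like domain, was at 1.87 to 4.82 CPM in first-project skin and 209 to 276 CPM in the AGM. Rack1, a scaffold on the small subunit, was at 925 to 1457 and 1097 to 1409 CPM, ranges that overlapped. Window shares of both are not given here.

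The skin projects were compared over the 8 skin libraries with age as a term, by edgeR's quasi-likelihood test with Benjamini-Hochberg adjustment. Of 86 members tested, 68 were higher and 7 lower in second-project skin, and 11 did not pass. Of all 16588 genes tested, 58.8% were called, 29.5% higher and 29.3% lower. All 4 libraries of one project lay above all 4 of the other for 66 members with second-project skin higher and for 8 with it lower, against 24.2% and 38.2% of genes. The median log2 difference was 2.11 for the members and -0.01 for all genes. Called higher were 41 of 51 large-subunit and 27 of 35 small-subunit members. Among members with 60% or more shared windows, 35 of 36 were higher and 1 was lower, and among those under 10%, 3 of 8 were higher and 3 lower.

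The largest differences were 8.91 ± 0.58 (log2, standard error) for Rps27, 8.42 ± 0.54 for Rpl23a, 7.69 ± 0.49 for Rpl19 and 7.38 ± 0.76 for the processed pseudogene Rps3a3, with adjusted p from 2.95e-04 to 7.69e-04. Rps3a3 was at 166, 63.7, 203 and 33.2 CPM in second-project skin and at 0.484 to 2.42 CPM in all other libraries, and its order over the ages was that of Rps27. Among the members lower in second-project skin were Rps4l by -2.82 ± 0.28, Rpl8 by -1.44 ± 0.22 and the stalk gene Rplp1 by -1.17 ± 0.26, with adjusted p from 7.31e-04 to 0.00956. Its partner Rplp2 was also lower (adjusted p = 0.00774), at 96.3 to 121 CPM against 198 to 315 CPM, while Rplp0, its base, differed by 0.21 ± 0.24 (adjusted p = 0.478). The 2 proteins that carry the 5S ribosomal RNA and bind Mdm2, Rpl5 and Rpl11, were both higher, by 6.04 ± 0.38 and 5.07 ± 0.36. Their transcripts share 93.8% and 62.2% of windows, in the band where 35 of 36 members were higher. Project, dividing-cell content and erythroid content moved together here, and their parts cannot be told apart.

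The AGM was compared with first-project skin in a fit that left out the second project, with 10 libraries, in which each skin age is 1 library and the spread comes from the AGM pairs. At E9.5, 69 of 87 members were higher in the AGM and 3 lower, against 33.9% of all 19945 genes called (18.0% higher, 15.9% lower), and the median log2 difference was 1.98 against 0.04 over all genes. At E10.5, 75 of 87 were higher and 0 lower by edgeR, with 76 and 0 at an unadjusted p under 0.05 and 74 and 0 by DESeq2, against 11.7% of genes higher and 12.2% lower. The median at E10.5 was 2.35 against 0.01. The 12 members that did not pass included Rpl8, at 0.05 ± 0.10. The medians rose with the window share here too, from -0.16 under 10% to 3.29 at 60% and above at E9.5, and from 0.07 to 3.53 at E10.5.

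The largest rises at E10.5 were Rpl23a with 8.33 ± 0.28, Rps29 with 7.92 ± 0.23, Rpl19 with 7.01 ± 0.18 and Rps27 with 6.78 ± 0.24, with adjusted p from 1.12e-06 to 1.84e-06. At E9.5 the fit put the pseudogenes Rps3a2 and Rpl6l first, but both had 0 counts in the skin library and 0.643 to 0.982 CPM in the AGM, so no fold is given. Among the members lower in the AGM at E9.5 were Rpl8 by -0.44 ± 0.10 and the paralogue Rpl7l1 by -0.42 ± 0.14, with adjusted p of 0.00989 and 0.048. Tissue and project cannot be told apart, since no project holds both tissues. With all 14 libraries, 0 members passed at either age by edgeR, and 5 and 8 had an unadjusted p under 0.05. With skin project and AGM round as blocks, 59 (57 higher, 2 lower) and 66 (65 higher, 1 lower) passed. The members' medians were then 1.13 and 1.39, and the share of all genes called is not given here. These blocks lie within each tissue, so they do not adjust the difference between tissues for project.

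Within the AGM, the members were higher at each later labelled age, by small amounts in nearly all genes. From the label E9.5 to E10.5, the CPM was higher for 81 of 85 members in the first round and for 73 of 86 in the second, with median log2 ratios of 0.17 and 0.11, among members with at least 20 counts in the 2 libraries. From E10.5 to E11.5 it was higher for 84 of 85 and for 86 of 86, with medians of 0.16 and 0.24. Over all genes with such counts the medians were -0.07 and -0.05 in the earlier and -0.06 and -0.08 in the later step, and 41.1% to 43.1% were higher. Thus the members moved against the median gene in both rounds.

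In the fit of the 6 AGM libraries, 1 of 86 members tested, Rps2, passed between the labels E9.5 and E10.5, against 2.59% of 17613 genes (0.874% higher, 1.72% lower). The median was 0.19, and 42 members had both later libraries above both earlier ones, as had 17.6% of all genes. With the round as a block, 44 members were higher and 0 lower. The share of all genes called with the block is not given here, so 44 cannot be set against 0.874%. By edgeR without the block, 17 members were higher and 0 lower at an unadjusted p under 0.05, and DESeq2 called 2 higher and 0 lower. Between E10.5 and E11.5, 24 of 86 were higher and 0 lower by edgeR, with 48 and 0 at an unadjusted p under 0.05 and 32 and 0 by DESeq2, against 27.2% of genes (11.8% higher, 15.4% lower). The median was 0.29, and 52 members did not overlap upward and 0 downward, against 23.8% and 40.1% of genes. With the round as a block 81 were higher and 0 lower. The share of all genes called with the block is not given here, so 81 cannot be set against 11.8%. The count fell from 24 to 2 without either E10.5 library or the second-round E11.5 library and to 7 without the first-round E11.5 library, and library size alone gave 9. With all 14 libraries 0 passed by edgeR, and 0 had an unadjusted p under 0.05.

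Rps2 was at 866, 1212 and 1572 CPM in the first round and 931, 1195 and 1563 CPM in the second, with no overlap between labelled ages. Its changes were 0.48 ± 0.09 (adjusted p = 0.0416) and 0.47 ± 0.09 (adjusted p = 0.00775). The largest changes in the later step were those of the paralogue Rpl36al, from 6.04 and 7.13 to 8.58 and 11.2 CPM (0.68 ± 0.19, adjusted p = 0.0356), of Rps27l, from 60.9 and 62.2 to 77.7 and 98.2 CPM (0.60 ± 0.16, adjusted p = 0.0259), and of Rplp1, from 673 and 637 to 860 and 894 CPM (0.51 ± 0.09, adjusted p = 0.00508). All 3 stalk genes rose, Rplp0 by 0.38 ± 0.09 and Rplp2 by 0.36 ± 0.10. Neither Rpl5 nor Rpl11 passed, at 0.33 ± 0.14 and 0.29 ± 0.10. Across 81 members rho between the change and the window share was 0.04 in the earlier and 0.11 in the later step.

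**Figure D4:**
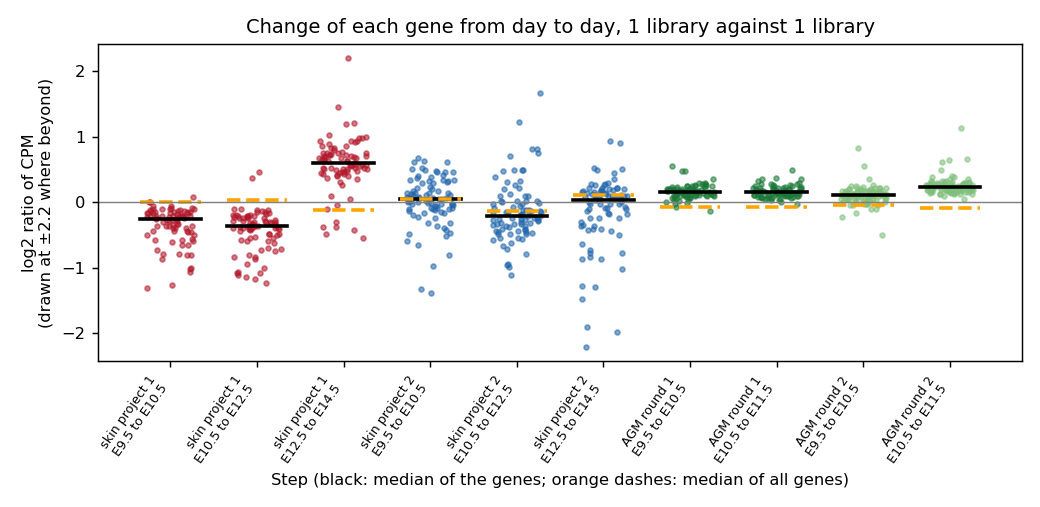
Each point is the log2 ratio of CPM of 1 gene between consecutive ages within 1 skin project or AGM round; black lines are medians of the genes and orange dashes medians of all genes. The 4 AGM steps have narrow clouds above 0 (medians 0.11 to 0.24), first-project skin falls, falls and rises (medians -0.25, -0.36 and 0.61), and second-project skin scatters around the dashes.

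Genes that make ribosomes also rose in the labelled order of the AGM ages, where 0.874% of all genes were higher in the earlier and 11.8% in the later step. Of 35 ribosome biogenesis factors, 7 were higher and 0 lower from the label E9.5 to E10.5 (median 0.47), and 34 were higher and 0 lower from E10.5 to E11.5 (median 0.69). Ncl, the nucleolar protein nucleolin, was at 1142, 1767 and 3147 CPM in the first round and 1429, 1980 and 3461 CPM in the second, and rose by 0.91 ± 0.13 in the later step (adjusted p = 0.00184). Ddx21, a nucleolar helicase, rose by 0.67 ± 0.10 and 0.88 ± 0.10 in the 2 steps. Of 12 genes of RNA polymerase I, which transcribes the ribosomal RNA precursor, 1 and 7 were higher, led by Polr1b with 0.49 ± 0.10 and 0.82 ± 0.10.

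Among the Myc family, known activators of both groups, Myc rose by 0.73 ± 0.10 in the earlier step and Mycn by 1.31 ± 0.12 in the later one. Of 77 mitochondrial ribosomal protein genes tested, which serve the separate ribosome of mitochondria, 0 passed in the earlier step by edgeR and 12 were higher in the later one (median 0.25), 15.6% of them against 11.8% of all genes. Of 10 genes of mTOR and Larp1 control, 0 and 2 were higher, Eif4ebp1 by 0.80 ± 0.11 and Larp1 by 0.45 ± 0.13. Marker groups of other cells moved with these steps: the 8 macrophage markers summed to 132, 52.5 and 6.85 CPM in the first round and 121, 47.1 and 8.13 CPM in the second, the 6 skeletal muscle markers to 164, 263 and 52 CPM and 229, 337 and 47.2 CPM, and the 7 dividing-cell markers to 2670, 2949 and 3282 CPM and 2844, 3162 and 3490 CPM. Their part in the members' change was not tested.

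In first-project skin the members fell to E12.5 and rose to E14.5. The CPM was lower for 80 of 83 members with at least 20 counts from E9.5 to E10.5 and for 80 of 82 from E10.5 to E12.5, then higher for 75 of 83 from E12.5 to E14.5, with median log2 ratios of -0.25, -0.36 and 0.61. The medians over all genes were 0.01, 0.04 and -0.11. Second-project skin had 50 of 87 higher in the first of these steps, 25 of 87 in the second and 48 of 87 in the last, with medians of 0.06, -0.21 and 0.04, where all genes had 0.06, -0.13 and 0.12. The rise to E14.5 in nearly all members was thus seen in 1 of the 2 projects.

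In the fit of 10 libraries, 6 of 87 members passed between E9.5 and E10.5 and were lower (27 at an unadjusted p under 0.05, 11 by DESeq2), against 6.43% of genes (1.79% lower, 4.64% higher), and 36 were lower and 0 higher with the AGM round as a block. Between E10.5 and E12.5, 29 were lower and 0 higher, against 30.1% of genes (12.7% lower), and with the block 66 were lower and 2 higher. Between E12.5 and E14.5, 57 were higher and 0 lower, against 27.5% of genes (14.3% higher), and with the block 68 were higher and 3 lower. These tests take their spread from AGM pairs. The shares of all genes are those of the fit without the block. None is given for the block, so the blocked counts cannot be set against them. With the 8 skin libraries and project as a block, 0 members passed by edgeR in any of the 3 steps, and 0, 1 and 0 had an unadjusted p under 0.05.

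Rpl10a, which forms the mobile stalk beside the exit site, was at 74.4, 35.6, 24.6 and 50.5 CPM in first-project skin and changed by -1.06 ± 0.13, -0.58 ± 0.13 and 1.17 ± 0.13 in the 3 steps, with adjusted p from 4.67e-04 to 0.0134. In second-project skin it was at 173, 205, 198 and 162 CPM, an order of its own. Rps12, of the small-subunit beak, was at 28.1, 13.8, 6.54 and 11.1 CPM and changed by -1.03 ± 0.20, -1.12 ± 0.22 and 0.89 ± 0.22. Rps29 fell by -1.39 ± 0.31 and Rps13 by -1.02 ± 0.21 in the first step. Both were low in these libraries, Rps29 at 0.448 to 2.21 CPM and Rps13 at 3.71 to 10.1 CPM.

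Between E10.5 and E12.5 among the largest falls were those of Rpl19, by -1.24 ± 0.24, Rpl9, by -1.22 ± 0.18, and Rpl10, by -1.16 ± 0.17, with adjusted p from 0.00157 to 0.00613. All 3 share 79.3% to 93.3% of their windows. Across 81 members the change correlated with the window share at rho = -0.44 in the first step, -0.42 in the second and 0.02 in the last. Rps3, with few shared windows, had values of the same directions, at -0.11 ± 0.13, -0.45 ± 0.13 and 0.86 ± 0.13, and passed in the last 2 steps.

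The rise to E14.5 was largest in Rpl39l, a paralogue of Rpl39 best known from the testis, with 1 count at E9.5 and 0.132, 0.667 and 7.66 CPM at the later ages (3.64 ± 0.57, adjusted p = 0.00222). It shared no window with another gene. Rpl36 followed, from 4.21 to 11.7 CPM (adjusted p = 0.000236), and Rpl12, of the stalk base, rose by 1.33 ± 0.27. All 3 stalk genes rose, by 0.80 to 0.99. Of the ribosome biogenesis factors, 28 of 35 were lower from E10.5 to E12.5 (median -0.70), but 2 of 35 were higher and 0 lower from E12.5 to E14.5 (median 0.15), and of 77 mitochondrial ribosomal protein genes tested 13 were lower and then 5 higher. These 13 are 16.9% and the 5 are 6.49% of the 77, where 12.7% of all genes were lower in the former step and 14.3% higher in the latter. Ncl was at 2983, 1920, 1130 and 1206 CPM over the 4 ages. Over the last step the 8 keratinocyte markers went from 250 to 3689 CPM and the 10 erythroid markers from 2419 to 8737 CPM in sum, and their part in the change was not tested.

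Over the days E9.5 and E10.5 the change differed between the tissues for 15 of 87 members, each with a higher change in the AGM, against 7.67% of genes (2.63% higher, 5.04% lower), by the difference of the 2 changes in the fit of 10 libraries. The sign of the AGM change rests on the labelled order of its ages, which the timing genes went against. With the AGM step turned, an alternative chosen after seeing the data, 1 member passed by edgeR, Rpl10a, 10 had an unadjusted p under 0.05, and the median difference was 0.07. With the round as a block 64 members passed, all higher. With limma-voom 6 did, and with all 14 libraries 0 by edgeR and 0 at an unadjusted p under 0.05. Leaving out 1 AGM library gave 4 without either first-round library of E9.5 or E10.5, 5 without the second-round E10.5 library, 9 without either E11.5 library and 12 without the second-round E9.5 library. Shares of all genes called with the block or in these other fits are not given here. In the labelled order the median difference was 0.46 on the log2 scale against 0.01 for all genes. It was 0.32 for the 8 members under 10% shared windows, of which 0 passed, and 0.63 for the 36 at 60% or more, of which 10 did. Of the ribosome biogenesis factors 25 of 35 had a higher change in the AGM (median 0.90).

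Among the paralogues, Rpl22l1 is known to rise when its RNA-binding partner Rpl22 is lost. Rpl22l1 was at 33.1 to 53.2 CPM in first-project skin, 57.2 to 69.5 CPM in second-project skin and 69.2 to 113 CPM in the AGM, where Rpl22 was at 298 to 442, 266 to 455 and 322 to 411 CPM. Rpl22 shared 5.19% of its windows and its ranges overlapped in all 3 sets. Rps4l was at 50.8 to 65.7 CPM in first-project skin, 57.1 to 63.1 CPM in the AGM and 3.99 to 7.97 CPM in second-project skin, while its X-linked partner Rps4x was at 145 to 192, 812 to 1021 and 655 to 777 CPM. The pair thus ran in opposite directions between the 2 skin projects, with -2.82 ± 0.28 for Rps4l and 2.43 ± 0.21 for Rps4x. Rps4x shared 72.2% of its windows with other genes.

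Rpl39l was at 6.48 to 9.98 CPM in second-project skin at every age, and at 0 to 0.305 CPM in the AGM, so the E14.5 library of the first project, at 7.66 CPM, was the one other library near that level. Rpl39 was at 35.3 to 65.7 CPM in first-project skin, 136 to 172 CPM in second-project skin and 103 to 151 CPM in the AGM. Rpl7l1, which is known as a ribosome assembly factor, was at 192, 163, 136 and 105 CPM in first-project skin and did not rise to E14.5 (-0.24 ± 0.17, adjusted p = 0.328), while its partner Rpl7 rose by 0.58 ± 0.19 (adjusted p = 0.0488). The muscle paralogue Rpl3l was at most at 0.224 CPM and the testis paralogue Rpl10l at most at 1.92 CPM in any library, and neither was tested.

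**Figure D5:**
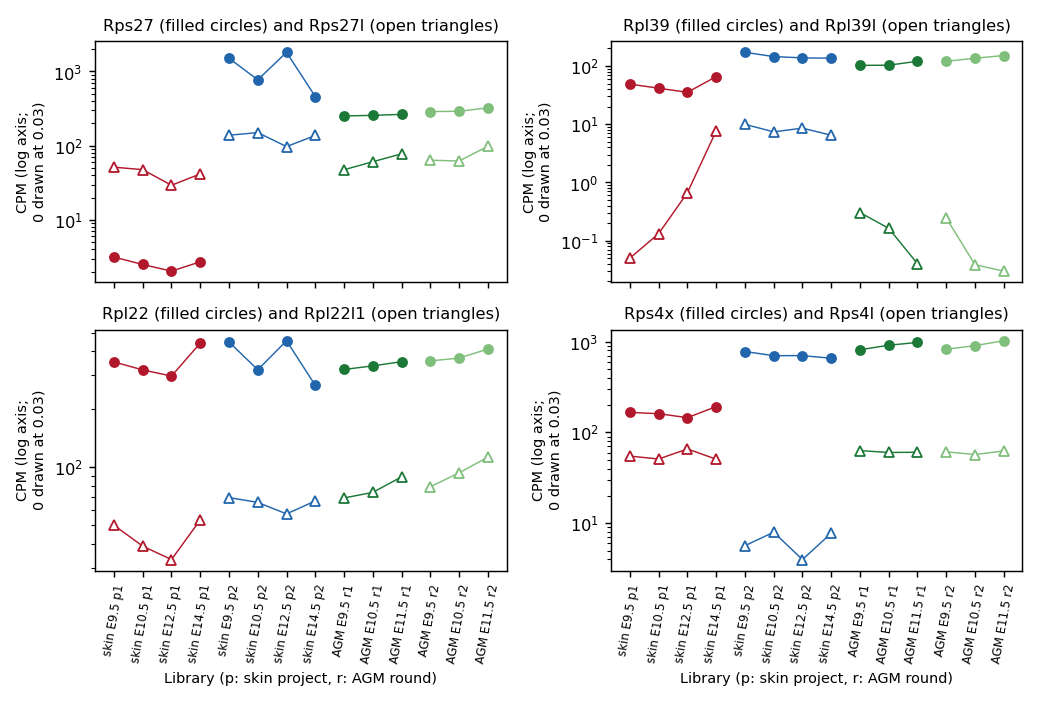
CPM of 4 pairs of paralogues in each of the 14 libraries on log axes; colours mark the skin project or AGM round. Rps27 lies below Rps27l in first-project skin only, Rpl39l reaches 7.66 CPM at E14.5 in the first project and 6.48 to 9.98 CPM in the second, and Rps4l is at 3.99 to 7.97 CPM in second-project skin.

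Some members have a known mutant phenotype. Mutations of Rps19 and Rps20 darken mouse skin, and those of Rpl24 and Rpl38 change tail, coat spotting or axial patterning. All 4 were higher in second-project than in first-project skin, with log2 differences of 1.48 ± 0.25 for Rps19, 1.47 ± 0.19 for Rps20, 3.30 ± 0.40 for Rpl24 and 4.44 ± 0.29 for Rpl38. In that test 68 of the members tested and 29.5% of all genes tested were higher, so this does not set the 4 apart. In first-project skin Rps20 was at 196, 169, 132 and 195 CPM and Rps19 at 148, 131, 105 and 179 CPM, both passing the test for the rise to E14.5 (0.69 ± 0.13 and 0.91 ± 0.13). Rpl38 was at 7.58, 5.06, 3.04 and 5.91 CPM there and at 83.3 to 149 CPM in the AGM. Of the 9 genes mutated in Diamond-Blackfan anaemia, an inherited failure of red cell production, 7 were higher in the AGM than in first-project skin at E9.5 and all 9 at E10.5, where 18.0% and 11.7% of all genes were higher. Most members were higher in those comparisons too, with median log2 differences of 1.98 at E9.5 and 2.35 at E10.5. These values therefore do not set the 9 apart from the other members. Between the AGM labels E10.5 and E11.5, 1 of the 9 rose (11.1%), near the 11.8% of all genes.

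Rpsa, the laminin receptor homologue of the small subunit, was at most at 22.3 CPM in first-project skin, at 543 to 612 CPM in second-project skin and 969 to 1263 CPM in the AGM. Rps27a, a fusion with ubiquitin, was at 5.73 to 17.1, 368 to 542 and 346 to 560 CPM. Their window shares were 44% and 72%. Of 15 translation factors whose mRNAs also carry the TOP motif, 6 were higher and 4 lower in the AGM than in first-project skin at E9.5, against 18.0% and 15.9% of all genes. Tpt1, a growth-related factor, led with 4.02 ± 0.25. Eef2, the elongation factor that moves the ribosome along the mRNA, was at 2628 to 3444 CPM in first-project skin and 2517 to 3712 CPM in the AGM, ranges that overlapped.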

How the data were processed

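The authors deposited raw read counts per gene for 14 libraries in 1 table. GRCm38/mm10, featureCounts 1.6.0, STAR 2.5.0a and Trimmomatic 0.36 appear, with no role or setting, in the submitters' processing notes, which also list DESeq2 1.20.0. Treatment of strand and of multi-mapping reads is not stated there. The members and lists were chosen with earlier results of these data known. The test was edgeR 4.0.16 under R 4.3.3 (filterByExpr by group, TMM, glmQLFTest, Benjamini-Hochberg over all genes, called under 0.05). Fits used 8 skin libraries (16588 genes, coefficient of variation 40.3%), 6 AGM libraries (17613 genes, 12.1%) or 10 libraries without second-project skin (19945 genes, 12.1%), each with 3 residual degrees of freedom. The tests were checked on simulated counts. Members not tested were Rpl3l, Rpl10l and Rps12l1 in each fit, Rpl32l between skin projects and Rpl39l within the AGM. Replicate numbers mark a shared project or round: replicate differences correlated at 0.73 to 0.95 over 6 pairs of skin ages and at 0.43 to 0.61 over 3 pairs of AGM ages (15747 genes). CPM is a count divided by its library's total and scaled. Ratios of CPM added 0.1 CPM. Window shares used 50 bases. Lengths are those of GENCODE main transcripts. Named members are the 4 largest rises and falls among those that passed without overlap, plus a fixed list of paralogues, stalk, 5S, mutant and ubiquitin-fusion genes; Rps3, Rpl4, Fau, Rack1, Hes7, Lin28a and the genes shown by window share were chosen after their values were seen. Values of some members are not reported here, though the counts include these members. Other settings were median-of-ratios factors, no scaling, TMM without the members, no globin and mitochondrial genes, no filter, DESeq2 1.42.0, limma-voom 3.58.1, -ps rows added, the replicate block and other library sets. Each AGM library was also left out in turn, as was each age between the skin projects. The AGM step turned was added after seeing the data.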

Additional observations from a re-analysis of the deposited data

Results flagged for a closer look

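Between E9.5 and E10.5 the AGM and first-project skin changed differently in 15 members (edgeR's quasi-likelihood test on the difference of the 2 changes, Benjamini-Hochberg adjustment). The AGM change minus the first-project skin change, on the log2 scale, was 1.47 for Rps29, 1.32 for Rpl10a, 1.23 for Rps12, 1.21 for Rps13, 1.04 for Rpl19 and 0.90 for Rpl9. It was 0.88 for Rpl3, 0.86 for Rpl10, 0.82 for Rps2, 0.73 for Rpl11, 0.71 for Rpsa, 0.66 for Rpl27, 0.65 for Rplp1, 0.64 for Rpl37 and 0.57 for Rplp0. Adjusted p ran from 0.00404 to 0.0466. The skin change rests on 1 library at each age, and the AGM ages are as labelled. Timing genes went against that order, and with the direction of the AGM step turned 1 of the 15 still passed, Rpl10a at 0.80.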

How the results depend on the processing

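Counts of members that passed are given against 1, 24, 6, 29, 57, 72, 75 and 15 for, in order, AGM E10.5 and E11.5, skin E10.5, E12.5 and E14.5 (each against the age before), AGM against skin at E9.5 and E10.5, and the difference of the tissues' changes. With all 14 libraries each of these 8 counts was 0 by edgeR; with the replicate block added to that fit it was 0 for the 5 age steps and for the difference. At an unadjusted p under 0.05, 0 to 8 members were called in the former fits and 0 to 30 in those 6. The replicate block within the smaller fits gave 44, 81, 36, 68 and 64 for the AGM steps, skin E10.5 and E12.5 and the difference, and moved no other count by over 1.5 times. Shares of all genes called with the block are not given here. The 8 skin libraries with a replicate block gave 0 in all 3 skin steps. Without a filter the counts were 3, 42, 14 and 25 for the AGM steps, skin E10.5 and the difference. Library size alone gave 9 for AGM E11.5 and 19 for skin E12.5. DESeq2 gave 2 for AGM E10.5 and 11 for skin E10.5, and limma-voom 2, 18 and 6 for skin E10.5, skin E12.5 and the difference. Leaving out 1 library gave 0 to 1, 2 to 19, 4 to 6, 19 to 25, 56 to 59, 71 to 74, 72 to 75 and 4 to 12, and leaving out 1 age between the skin projects 71 to 76 (75 with all). Apart from the comparison of the skin projects, only AGM libraries were left out. Each such AGM age then rests on 1 library, assumed to vary like the others. No skin library was left out of the fit of 10 libraries, since each skin age is 1 library there. These ranges therefore do not test the skin values. Between the skin projects, library size alone shifted the median of all genes to -0.35, with 66 members higher and 8 lower.

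The AGM step turned, chosen after seeing the data, gave 1 for the difference, with Rplp0 at -0.058. In the other settings named members changed sign in 24 cases, each in a fit that took second-project skin as a replicate of first-project skin. With all 14 libraries the log2 values were, for skin E10.5, Rps29 0.52, Rpl10a 0.029, Rps12 0.063, Rps13 0.048 and Rpl3 0.011; for skin E12.5, Rpl19 0.36, Rpl11 0.21 and Rpl5 0.44; for skin E14.5, Rpl10 -0.038, Rpl11 -0.51 and Rpl22 -0.044. For AGM against skin at E9.5 they were Rps3a2 -0.37, Rpl6l -0.68, Rpl8 0.24, Rpl7l1 0.15, Rpl39 -0.22 and Rps27 -1.79, at E10.5 Rps27 -0.78, and for the difference Rps29 -0.47. With the block added they were Rpl11 -0.047 at skin E14.5, and Rpl8 0.49 and Rpl7l1 0.27 for AGM against skin at E9.5. With the 8 skin libraries they were Rpl11 -0.12 and Rpl22 -0.027 at skin E14.5. In all other fits, the turned step included, 1678 values kept direction and call, 139 kept direction only and 1 changed sign. The causes were not tested. Low counts limit members under about 5 CPM in first-project skin.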
